A study of Mus musculus with 4 samples.

Results

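The tropomyosins and troponins of the thin filament were examined in heart muscle cells after pressure overload. The genes were taken by symbol, as the rows for Tpm1, Tpm2, Tpm3, Tpm4, Tnnt2, Tnnt1, Tnni3, Tnni1 and Tnnc1, which makes 9 of the 22322 genes in each library. Per the labels, all 4 libraries were made from total RNA of mouse cardiomyocytes, 2 after a sham operation and 2 after transverse aortic constriction (TAC), which narrows the aorta and loads the left ventricle. The methods of the study state that the mice were male and 2 months old at surgery, that echocardiography went on to 14 weeks after TAC, and that the cells of each heart were divided into 4 tubes for RNA and protein assays, including this RNA sequencing. The methods also call the mice used for cell isolation 14 weeks old, so the time between surgery and isolation was not settled here. Neither strain nor genotype is stated in the sources used here. Replicate libraries of a group differed far beyond counting noise, and p-values measure the spread between these 4 hearts.

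Tropomyosin is a coiled-coil dimer that lies along the actin filament and covers the sites where myosin binds. Troponin T (Tnnt genes) anchors the troponin complex to tropomyosin, troponin I (Tnni genes) holds the filament off, and troponin C (Tnnc genes) binds calcium and releases that block. The adult mouse ventricle uses Tpm1, Tnnt2, Tnni3 and Tnnc1. Tnni1 is the slow skeletal and fetal cardiac troponin I, Tnnt1 the slow skeletal troponin T, Tpm2 the beta-tropomyosin of skeletal and fetal muscle, and Tpm3 and Tpm4 give slow muscle or cytoskeletal tropomyosins. Tnnc1 is shared by heart and slow skeletal muscle.

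Libraries held 24237777 to 32118323 expected counts, and the 9 genes together took 1.16% to 1.34% of them. Ventricular cardiomyocyte markers were abundant in every library, with a summed level of 48419 to 55528 CPM (read counts brought to equal library size with TMM factors). Of these 8 markers, 5 were higher and 3 lower in TAC, with 0 called by edgeR, while DESeq2 called 4 higher and 1 lower. At an unadjusted edgeR p under 0.05, Myl2, Myl3, Actn2 and Mybpc3 rose by 0.36 to 0.41 in log2 and Ryr2 was at −0.38. Markers of other cells were present at low levels and were mostly lower in TAC. Fibroblast markers summed to 241 and 171 CPM in sham and 101 and 135 CPM in TAC, with 8 of 8 lower and 2 called. Endothelial markers summed to 424 and 326 CPM in sham and 190 and 272 CPM in TAC, with 6 of 6 lower and 1 called. Smooth muscle and pericyte markers summed to 420 and 430 CPM in sham and 210 and 317 CPM in TAC, with 8 of 9 lower and 1 called. Atrial markers stood apart in sham 1, at 82.1 CPM against 6.53 CPM in sham 2, 28.5 CPM in TAC 1 and 39.4 CPM in TAC 2. In such bulk RNA, fewer cells of a type and less RNA per cell cannot be told apart.

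Adult isoforms made up almost the whole of each family in both groups. On the deposited FPKM scale, which is per transcript length and so allows genes to be compared, Tpm1 made 99.0% to 99.4% of the tropomyosin FPKM in the 4 libraries. Tnnt2 made 99.8% of the troponin T FPKM in each library. Troponin I was 99.994% to 100% Tnni3. From highest to lowest mean FPKM in sham, the order was Tnnt2 (4240 ± 166, SD, n = 2), Tpm1 (4073 ± 200), Tnni3 (2678 ± 18.3), Tnnc1 (1561 ± 52.1), Tpm4 (18.8 ± 4.57), Tpm3 (9.81 ± 1.77), Tnnt1 (6.95 ± 0.438), Tpm2 (4.01 ± 2.18) and Tnni1 (0.045 ± 0.0212). Of neighbours in this order, only Tnnt2 and Tpm1 had overlapping values. In TAC, Tpm2 (8.54 ± 1.53) stood above Tpm3 (6.70 ± 1.59) and Tnnt1 (6.08 ± 0.841), where Tpm2 overlapped with Tpm3 and Tpm3 with Tnnt1.

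**Figure D1:**
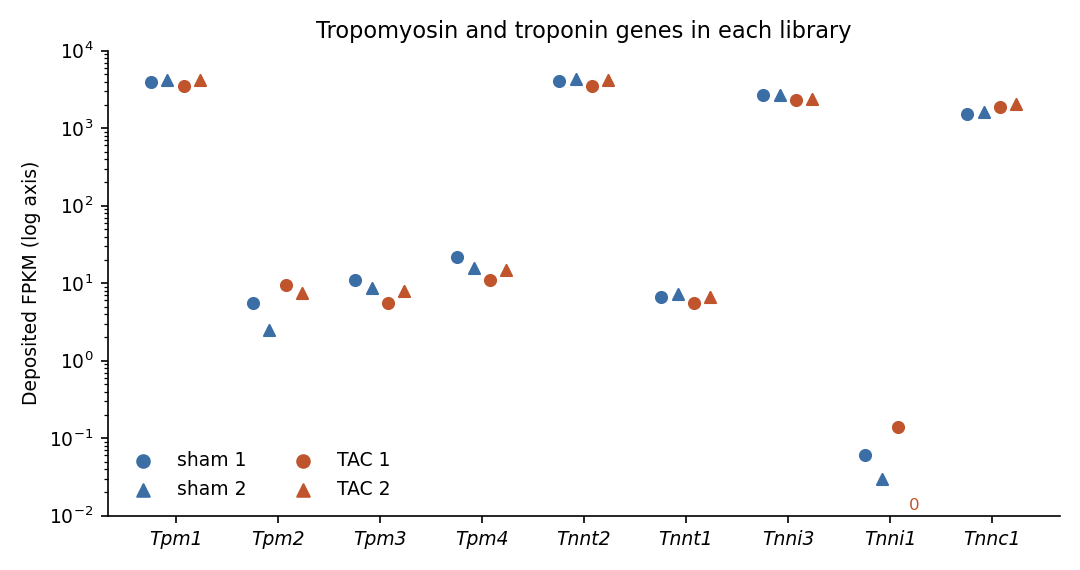
Deposited FPKM (log axis) of the 9 genes in each library, blue for sham and orange for TAC, circles for replicate 1 and triangles for replicate 2; the letter 0 marks a library with no count. Tpm1, Tnnt2, Tnni3 and Tnnc1 sit at 1524 FPKM or above, the minor tropomyosins and Tnnt1 between 2.47 and 22.0 FPKM, and Tnni1 at or below 0.14 FPKM.

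Of the 9 genes, 8 passed the filter on low counts and were tested with edgeR, and 2 of them, Tpm2 and Tnnc1, were called at an adjusted p under 0.05, both higher in TAC. Over all 12499 genes tested, 5.01% were called, 2.58% higher and 2.43% lower in TAC. On all 4 libraries and without a block, edgeR, DESeq2 and limma voom called none of the 8 lower, while Tpm3 and Tpm4 were lower at an unadjusted edgeR p under 0.05, as were 14% of all genes. TAC and sham did not overlap for 5 of the 8 genes (Tpm1, Tpm2 and Tnnc1 higher, Tpm3 and Tpm4 lower), against 60.1% of all genes tested (29.8% higher and 30.3% lower), so that share lay near the background. Without TAC 1 neither gene was called, with 0 calls among the 8, without sham 1 only Tpm2 was, and without sham 2 Tpm4 was called as well, lower in TAC.

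**Figure D2:**
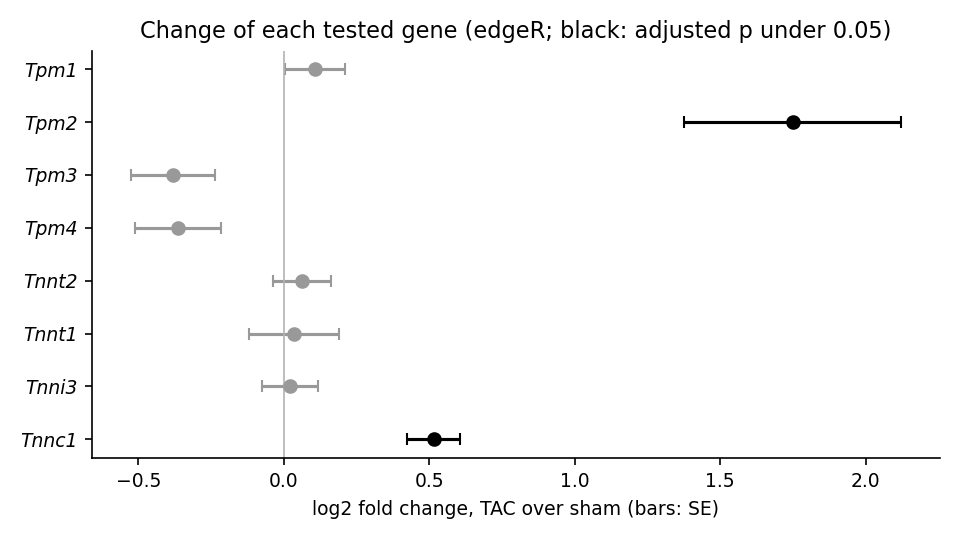
Log2 fold change of TAC over sham for the 8 tested genes, with bars of 1 standard error from edgeR; black marks an adjusted p under 0.05. Tpm2 at 1.75 and Tnnc1 at 0.52 are black, Tpm3 and Tpm4 lie below 0, and the adult Tpm1, Tnnt2 and Tnni3 lie within 0.11 of 0.

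Tpm2 (ENSMUSG00000028464, chr4:43514711-43523765, minus strand, GRCm38) had the largest log2 fold change of the 8 tested genes. Its counts were 233 and 93 in sham and 628 and 324 in TAC. On the CPM scale these were 7.36, 3.23, 22.5 and 13.3. Both TAC libraries were above both sham libraries, and the replicates differed widely within each group. The log2 fold change was 1.75 ± 0.37 (SE), a 3.36-fold rise with a 95% interval of 1.84 to 6.14 and an edgeR adjusted p of 0.0449. That p lay close to the threshold and ranged from 1.18e-05 to 0.109 over 12 alternatives in edgeR, DESeq2 and limma. It was 0.0633 with library totals without the mitochondrial genes, 0.0801 in DESeq2 and 0.108 without TAC 1, where the log2 fold change was still 1.31. Leaving out sham 1 gave 2.47, and leaving out sham 2 gave 1.29.

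Tpm2 is known to give a striated-muscle form and a smooth-muscle or non-muscle form by a choice between neighbouring internal exons and between final coding exons. Among its GENCODE M21 transcripts, Tpm2-202 (2098 bases) ends in a last exon of 1292 bases at chr4:43514712-43516003 and carries the final coding exon known from striated muscle. Tpm2-203 (1164 bases) ends in the distal exon of 151 bases at chr4:43514711-43514861, known from smooth muscle and non-muscle cells. Their sixth exons also differ, at chr4:43518644-43518719 in Tpm2-202 and at chr4:43519003-43519078 in Tpm2-203. The sixth exons have 41 of 76 bases alike and the coding parts of the last exons 33 of 80. The first 30 bases of each alternative coding stretch are shown, 5′ to 3′ on the minus strand, since they are where the proteins of the forms part; capitals mark bases that differ between Tpm2-202 and Tpm2-203.
Tpm2-202 exon 6, chr4:43518690-43518719: TAAaTGTGgGGaCctAgaggaggagctGAA
Tpm2-203 exon 6, chr4:43519049-43519078: CCGaGCCAgACaGctGgaggaggagctTCG
Tpm2-202 exon 9, chr4:43515974-43516003: aTGAAGtCTATGCACAGaagATGAagTacA
Tpm2-203 exon 9, chr4:43514832-43514861: aGACTTtGGCCAGTGCCaagGAAGagAacG
The last of these also lies in the long last exon of Tpm2-202, outside its coding part.

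The deposited values carry a trace of which length was present, if, as assumed here, each FPKM is the count divided by a transcript length and by the summed counts of the library; the length model behind the FPKM is not stated in the sources used here. The length that joins the count to the FPKM was 719 bases for Tnnc1 in all 4 libraries (its only annotated coding transcript has 721), 2157 to 2158 bases for Tpm4 (its only one has 2128), and 1209 to 1211 bases for Tpm1. For Tpm2 the implied length was 1455 bases in sham 1 and 1360 in sham 2, against 2033 in TAC 1 and 1794 in TAC 2. Sham thus lay nearer the 1164 bases of Tpm2-203 and TAC nearer the 2098 bases of Tpm2-202. The implied length was 1.36 times longer in TAC, a log2 change of 0.44 (0.35 to 0.53 as each library was left out). This was the fourth largest increase (rank 4) among 7323 genes with at least 90 counts and 2 FPKM in every library, minimums set after the Tpm2 counts were known. Of the other tested tropomyosin and troponin genes, Tnnt1 changed most, by 0.04 in log2, with 876 to 966 bases between libraries.

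Under the same assumption, if Tpm2 were a mixture of these 2 lengths alone, Tpm2-202 would be 31.2% and 21.0% of the Tpm2 transcripts in sham, and 93.0% and 67.5% in TAC. The longer form would then stand at 1.73 and 0.519 FPKM in sham and at 8.95 and 5.03 FPKM in TAC. The shorter form would stand at 3.82 and 1.95 FPKM in sham and at 0.675 and 2.42 FPKM in TAC. The longer form was thus above both sham values in both TAC libraries, whereas the shorter form overlapped between the groups. These are arithmetic on gene totals, with no count of reads on either exon and no test, and neither Tpm2-201 (2175 bases), which also has a long last exon, nor Tpm2-206 (401 bases) was separated. The deposited FPKM rose less than the counts, from 5.55 and 2.47 in sham to 9.62 and 7.45 in TAC, a log2 ratio of the means of 1.09. With limma on log2(FPKM + 0.1) the log2 fold change was 1.17 (adjusted p = 0.109), on a scale where the median of all genes was −0.19. The counts with total-count scaling gave 1.53, between this and the 1.75 with TMM.

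**Figure D3:**
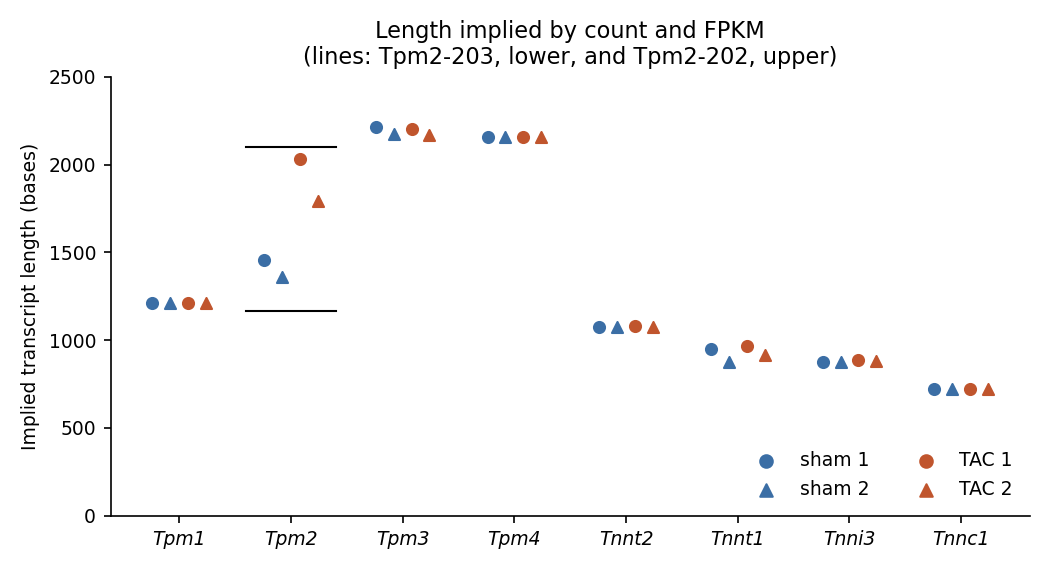
Transcript length in bases implied by count, FPKM and library total for the 8 tested genes in each library (blue sham, orange TAC, circles replicate 1, triangles replicate 2); black lines mark the annotated lengths of Tpm2-203, 1164 bases, and Tpm2-202, 2098 bases. Tpm2 moves from 1360 and 1455 bases in sham to 1794 and 2033 bases in TAC, while Tnnt1 varies from 876 to 966 bases without separating the groups and the other genes keep nearly the same length.

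The smooth muscle and pericyte markers given above, from cells known to hold the shorter Tpm2 form, were lower in TAC in 8 of 9 cases. Within sham, the atrial markers (82.1 and 6.53 CPM) and Tpm2 (7.36 and 3.23 CPM) were both higher in sham 1 than in sham 2. Against both TAC libraries, sham 1 was higher in the atrial markers and lower in Tpm2. Without sham 1 the Tpm2 log2 fold change was 2.47, against 1.75 with all libraries. Skeletal muscle markers summed to 17.7 and 19.6 CPM in sham and 22.5 and 25.6 CPM in TAC, nearly all of it Myl1 (16.2 and 18.3 CPM in sham, 21.2 and 24.3 CPM in TAC), and Myh1, Myh2, Myh4, Tnnc2 and Pax7 were at 0 in every library. The part of smooth muscle, pericyte and atrial cells in the Tpm2 values was not tested.

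The genes whose pattern over the 4 libraries was most like Tpm2, among genes with at least 5 CPM on average, were Nppa, Adam19, Nfil3, Rcan1 and Arntl, at mean absolute distances of 0.14 to 0.26 in centred log2 CPM. Nppa, which encodes atrial natriuretic peptide, was at 208 and 106 CPM in sham and 485 and 378 CPM in TAC. Rcan1, an inhibitor of the phosphatase calcineurin, was at 92.9 and 61.1 CPM in sham and 398 and 308 CPM in TAC. In both, as in Tpm2, sham 1 was above sham 2 and TAC 1 above TAC 2, an order that picking genes by likeness favours. Adam19 (a membrane metalloprotease), Nfil3 (a bZIP repressor) and Arntl (the clock factor BMAL1) had log2 fold changes of 1.31, 1.73 and 1.16, with edgeR adjusted p of 0.0454, 0.0282 and 0.102.

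Tpm1 (ENSMUSG00000032366, chr9:67022590-67049406, minus strand), the main cardiac tropomyosin, was at 4341 and 4910 CPM in sham and at 4960 and 4998 CPM in TAC. The groups did not overlap but sham 2 and TAC lay close together, and the log2 fold change was 0.11 ± 0.10 (SE, edgeR adjusted p = 0.536). Its sign turned to −0.08 with total-count scaling. Under that scaling the median of all genes was at −0.20, against −0.01 with TMM. The 95% interval of the fold was 0.910 to 1.27. The Tpm2 count was 0.170% and 0.0658% of the Tpm1 count in sham, and 0.454% and 0.265% in TAC; such count ratios serve only to compare libraries, since the transcripts differ in length. This ratio within a library does not depend on scaling and rose by 1.72 in log2, with spreads of 0.966 in sham and 0.549 in TAC (SD, n = 2). It was 1.03 without sham 2, 2.40 without sham 1 and 1.27 by FPKM. With 2 libraries a group, the exact two-sided permutation test of a ratio cannot go below 0.333, which is the value found here and for every ratio below whose groups did not overlap (0.4 after Benjamini-Hochberg adjustment over the 6 ratios computed by count). Tpm1 and Tpm2 share 9 of the 3011 stretches of 31 bases in the Tpm2 transcripts and none of 100 bases. These are also 9 of the 6703 in the Tpm1 transcripts, or 0.134%, a share of stretches and not of reads. Whether Tpm1 reads were counted for Tpm2 was not tested.

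Tpm3 (ENSMUSG00000027940, chr3:90072649-90100902, plus strand), which gives a slow-muscle and several cytoskeletal tropomyosins, was at 22.3 and 17.9 CPM in sham and 14.1 and 16.8 CPM in TAC. Its log2 fold change was −0.38 ± 0.14 (SE), with an edgeR p of 0.031 that became 0.143 after adjustment. Implied lengths of 2168 to 2216 bases in every library lay close to its longest coding transcript of 2233 bases. Of its stretches of 31 bases, 27.0% also occur in other genes, nearly all in Tpm3-rs7, so the division of reads between the 2 rows was uncertain. Tpm3-rs7 itself was listed at 2.44 counts in sham 2 and 0 in the other libraries.

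Tpm4 (ENSMUSG00000031799, chr8:72134975-72153142, plus strand), a cytoskeletal tropomyosin, was at 43.2 and 32.2 CPM in sham and 27.3 and 31.4 CPM in TAC. Of its stretches of 31 bases, 16.0% also occur in other genes, all of these in Gm7809. The Tpm4 counts were whole in every library, and whether reads were divided between Tpm4 and Gm7809 was not tested. Its lower TAC level, close to sham 2, gave a log2 fold change of −0.36 ± 0.15 (SE, edgeR adjusted p = 0.163), and it passed the threshold without sham 2 (−0.55, adjusted p = 0.0319, against 0.0319 to 0.677 over the 12 alternatives). Within a library, Tpm3 over Tpm1 was lower by 0.48 and Tpm4 over Tpm1 lower by 0.46 in log2 in TAC, with no overlap between groups, and without sham 1 these differences were −0.23 and −0.16. Fibroblast, endothelial and smooth muscle markers, cells in which both genes are known to be active, were lower in TAC as well and highest or near highest in sham 1. Their part in the Tpm3 and Tpm4 values was not tested.

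Tnnt2 (ENSMUSG00000026414, chr1:135836354-135852260, plus strand), the cardiac troponin T, was at 4049 and 4510 CPM in sham and 4403 and 4537 CPM in TAC. The groups overlapped, with a log2 fold change of 0.06 ± 0.10 (SE, edgeR adjusted p = 0.717) and a 95% interval of the fold of 0.887 to 1.23. Tnnt1 (ENSMUSG00000064179, chr7:4504570-4516382, minus strand), the slow skeletal form, was at 5.75 and 6.12 CPM in sham and 6.10 and 6.05 CPM in TAC. Its values were nearly level, at a log2 fold change of 0.03 ± 0.15 (SE, edgeR adjusted p = 0.906), with a 95% interval of the fold of 0.798 to 1.31. The Tnnt1 count was 0.133% to 0.142% of the Tnnt2 count in all 4 libraries. Of the 6 ratios this one moved least, by −0.03 in log2, less than its spread (exact permutation p = 0.667). By FPKM the same ratio was lower in both TAC libraries, with a log2 difference of −0.07 against a pooled SD of 0.03 (exact permutation p = 0.333).

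Tnni3 (ENSMUSG00000035458, chr7:4518305-4524229, minus strand), the cardiac troponin I, was at 2121 and 2274 CPM in sham and 2345 and 2113 CPM in TAC. TAC bracketed sham, and the log2 fold change was 0.02 ± 0.10 (SE, edgeR adjusted p = 0.909), with a 95% interval of the fold of 0.869 to 1.18. Under total-count scaling the signs of Tnnt2, Tnnt1 and Tnni3 all turned, to −0.12, −0.16 and −0.17, still without a call. Tnni1 (ENSMUSG00000026418, chr1:135779434-135810989, plus strand), its slow and fetal counterpart, had 2 and 1 counts in sham and 4 and 0 in TAC and did not pass the filter. Without the filter its edgeR adjusted p was 0.872. The absence of counts in TAC 2 allows up to 0.123 CPM (3 counts, counting error only). Against Tnni3, its FPKM was 0.00225% and 0.00111% in sham and 0.00609% in TAC 1. A difference between the groups was not detectable at this depth.

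Tnnc1 (ENSMUSG00000091898, chr14:31208312-31211729, plus strand), the calcium-binding troponin C of heart and slow muscle, was at 999 and 1105 CPM in sham and 1559 and 1447 CPM in TAC. Both TAC libraries were well above both sham libraries. The rise was 0.52 ± 0.09 (SE) in log2, 1.43-fold with a 95% interval of 1.23 to 1.66 and an edgeR adjusted p of 0.0278. It was 0.33 with total-count scaling (adjusted p = 0.127), 0.44 without sham 1 (0.0672) and 0.46 without TAC 1 (0.0647), with adjusted p-values of 1.95e-06 to 0.206 in all 12 alternatives. Its FPKM, 1524 and 1598 in sham and 1884 and 2031 in TAC, gave 0.33 on the log2 scale. Its annotation overlaps Nisch, which lies on the opposite strand at 129 CPM with a log2 fold change of −0.09, and whether strand was used in counting is not stated in the sources used here.

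The other subunits of the complex were not called, and the balance of counts between subunits differed between the groups. Tnnc1 over Tnni3 was 47.1% and 48.6% by count in sham and 66.5% and 68.5% in TAC, a log2 difference of 0.50 against a pooled SD of 0.03. Per transcript length, Tnnc1 FPKM was 57.2% and 59.4% of Tnni3 FPKM in sham and 81.9% and 84.2% in TAC. Tnnc1 over Tnnt2 was 24.7% and 24.5% by count in sham and 35.4% and 31.9% in TAC, a log2 difference of 0.45 that stayed between 0.38 and 0.53 as each library was left out. These ratios do not depend on the scaling of a library, their groups did not overlap, and the pairs were chosen after their values were seen. Genes most like Tnnc1 over the 4 libraries were Mtln, Bag2, Cstf1, Utp18 and Grwd1, within 0.02 in centred log2 CPM. Their log2 fold changes of 0.49 to 0.57 follow largely from that choice. Of these genes Bag2, a co-chaperone of Hsp70, was called by edgeR (adjusted p = 0.0366).

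**Figure D4:**
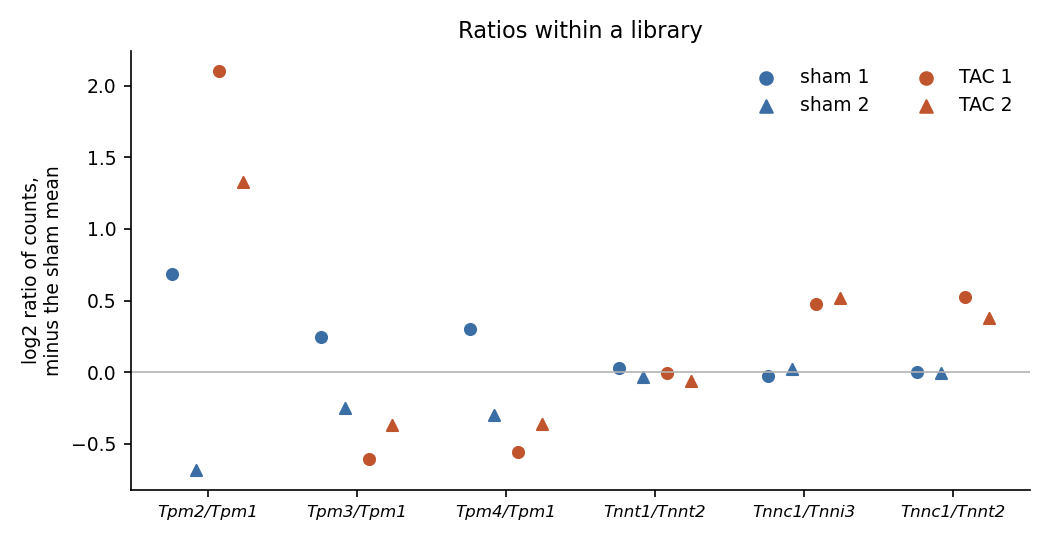
Log2 ratio of the counts of 2 genes within each library, minus the sham mean of that ratio, with blue for sham and orange for TAC, circles for replicate 1 and triangles for replicate 2. Tpm2/Tpm1 is higher in TAC by 1.72 with a wide spread, the 2 Tnnc1 ratios are higher by 0.50 and 0.45 with a narrow one, and Tnnt1/Tnnt2 stays close to 0.

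Troponin T and I genes lie in pairs. Tnnt1 and Tnni3 are neighbours on chromosome 7, 1922 bases apart, with log2 fold changes of 0.03 and 0.02. Tnni1 and Tnnt2 flank Lad1 on chromosome 1. Among the tested genes next to each member, 1 was called: Ccdc107, 18789 bases from Tpm2 on the opposite strand, rose by 0.65 in log2 (edgeR adjusted p = 0.0437). Tln1, on the other side of Tpm2 and encoding talin, was at 0.20 (adjusted p = 0.132). Dnaaf3 overlaps the annotation of Tnni3 on its start side and on the same strand, so reads there cannot be told apart.

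Promoter sequences from RefSeq (GRCm38.p6, 250 bases before to 50 after a start) were found for all 9 genes, in 12 windows. The letters CATTCC, the core of the MCAT element known from cardiac troponin T, occurred on either strand in 3 of the 12 windows, those of Tnnt2, Tpm1 and Tnnc1, and in 14.7% of all 32851 promoters. They are shown because Tnnc1 rose while Tnnt2 and Tpm1 were not called; capitals mark CATTCC or its reverse complement.
Tnnt2, chr1:135836295-135836324, plus strand: tctcctgctgcaCATTCCtccctccgcggg
Tpm1, chr9:67049252-67049281, minus strand: tggctgtcctaaGGAATGcggtcgcccccc
Tnnc1, chr14:31208242-31208271, plus strand: tgggctgggctgGGAATGtagcaggaggtg

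The Tnnc1 window also held the letters TATAA, starting 24 bases before the start, as did Tnnt1 at 30 bases and, on the other strand, Tnnt2 at 136 bases, and 24.9% of all promoters held them on either strand. The Tpm2 window held neither, but 3 matches to the GC box GGGCGG, a motif in 35.7% of all promoters. CpG pairs numbered 31, 27 and 20 in the 300 bases of Tpm4, Tpm1 and Tpm2, 3 and 15 in the windows of Tpm3, 1 to 6 in those of the troponin genes, and 7 in the median promoter. No window held a CArG box or a MEF2 motif, which occurred in 1.63% and 3.19% of all promoters. A match of letters does not show binding, and these windows do not separate the 2 called genes from the others.

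Proteins that cap, build or sever thin filaments were taken as a list of 24 genes, chosen with earlier results of these data known. All were tested. edgeR called 4 of them, all higher in TAC and none lower, with 9 higher and 0 lower at an unadjusted p under 0.05. Over all genes 2.58% were called higher, 27.5% passed the unadjusted threshold in either direction, and 14% passed it lower in TAC. DESeq2 called 5 and limma voom 4, none of them lower, total-count scaling left 1, and without TAC 1 edgeR called 2 higher and 1 lower. Nrap, a scaffold of assembling myofibrils at the intercalated disc, was at 602 and 641 CPM in sham and 1145 and 997 CPM in TAC, a log2 rise of 0.79 ± 0.09 (SE, edgeR adjusted p = 0.00796). Wdr1 and Cfl2, which disassemble actin filaments together, rose by 0.62 and 0.49 (adjusted p = 0.00641 and 0.0313), and Daam1, a formin, by 0.39 (0.035). The median of the list was 0.02, against −0.01 over all genes. Total-count scaling kept the sign of all 4, and Nrap alone remained called. Over the 12 alternatives the call was lost in 7 for Daam1, 4 for Cfl2, 3 for Wdr1 and 0 for Nrap.

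Of 17 genes listed as kinases and phosphatase subunits that may act on troponin, all tested, 1 was called, a share near the 5.01% called over all genes. At an unadjusted edgeR p under 0.05 there were 5 higher and 2 lower, against 27.5% of all genes in either direction. The called gene, Ppp2ca, a catalytic subunit of protein phosphatase 2A, rose by 0.35 (edgeR adjusted p = 0.0415), a call lost in 8 of 12 alternatives, among them those without sham 1, sham 2 or TAC 1. Tnni3k, a kinase named for its binding to cardiac troponin I, was at −0.03 (adjusted p = 0.85). Fast skeletal troponins were close to absent, with 3 to 20 counts of Tnni2, 1 to 10 of Tnnt3 and 0 of Tnnc2 in each library.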

How the data were processed

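The deposited tables give 2 values per gene and library: the expected count, an estimate by the authors that may be fractional, and an FPKM that the authors had scaled by transcript length and library size. The submitters' processing notes name Bowtie2 2.2.8, StringTie 1.3.1 and the build mm10, without their roles. Which annotation and counting rule were used, and whether strand was, is not stated in the sources used here. Of the 9 genes, only Tpm3 had a count that was not whole, in 1 library. Counts were rounded, filtered with filterByExpr, scaled by TMM and tested by edgeR 4.0.16 quasi-likelihood (R 4.3.3), with Benjamini-Hochberg adjustment over 12499 genes and a threshold of 0.05. The standard error is the log2 fold change over the square root of F, and intervals use the degrees of freedom of that test. The depth of 24237777 to 32118323 counts puts the limit of 3 counts at 0.0948 to 0.123 CPM. The common biological coefficient of variation was 10.5%.

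Alternatives were total-count scaling (named by the study), totals without mitochondrial genes, no filter, DESeq2 1.42.0, limma 3.58.1 with voom or on log2(FPKM + 0.1) and log2(FPKM + 1), a replicate block, and each library left out. Ratios within a library used exact permutation tests in SciPy. The code of the test was run on simulated counts with the same spread for every gene, unlike these data, so that run does not bear on any call here. Implied length is the count divided by the FPKM and by the summed counts of the library, brought to bases. Coordinates and transcripts come from GENCODE M21, promoters from RefSeq, both on GRCm38, the assembly of mm10. Named genes were all 9 members and the called genes of the partner list and of the kinase and phosphatase list (up to 8 by size). The 5 genes most like each called member, tested neighbours, and other rows with a tropomyosin or troponin symbol were named as well. Members and lists were chosen with earlier results of these data known. Marker lists not described above were those of macrophages, platelets and red blood cells. Macrophage markers summed to 100 and 51.5 CPM in sham and 26.1 and 49.9 CPM in TAC, with 6 of 6 lower and 0 called. Platelet markers summed to 0.825 to 2.59 CPM and red blood cell markers to 49.9 to 125 CPM over the libraries.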

Additional observations from a re-analysis of the deposited data

How the results depend on the processing

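Tpm2 and Tnnc1 stayed higher in TAC under every alternative run, and each was called in 7 of 12. Of the 8 tested genes, 1 was called with total-count scaling, 1 with totals without mitochondrial genes, 1 with DESeq2 and 0 with limma on log2(FPKM + 0.1) or log2(FPKM + 1), and 0 to 3 with a library left out (0 without TAC 1, 1 without sham 1). Calls over all genes were 626, with 322 higher and 304 lower. They were 531 with total-count scaling (105 higher, 426 lower), 638 with totals without mitochondrial genes (188 and 450), 1676 with no filter, 195 and 214 on the 2 FPKM scales, and 301 (without TAC 1) to 1336 (without TAC 2) with a library left out. Partner genes called fell from 4 to 1 with total-count scaling and to 1 on each FPKM scale. Tpm2 lost its call at 1.64 with totals without mitochondrial genes, 1.76 in DESeq2, 1.17 and 0.99 on the FPKM scales, and ranged from 1.29 to 2.47 with a library left out. Tnnc1 lost it at 0.33 with total-count scaling and at 0.33 on both FPKM scales, and ranged from 0.44 to 0.59. Tpm4, from −0.55 to −0.13 with a library left out, was called without sham 2.

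Uncalled values near 0 changed sign. With total-count scaling Tpm1 was −0.078, Tnnt2 −0.12, Tnnt1 −0.16 and Tnni3 −0.17. With totals without mitochondrial genes Tnnt2 was −0.0351, Tnnt1 −0.0651 and Tnni3 −0.0789. On both FPKM scales Tpm1 was −0.0792, Tnnt2 −0.13 and Tnni3 −0.19, and Tnnt1 −0.20 and −0.17. With a library left out, Tnnt2 ranged from −0.0121 to 0.148, Tnnt1 from −0.00905 to 0.0841 and Tnni3 from −0.0562 to 0.0967. The median of all genes moved to −0.20, −0.11, −0.19 and −0.13 under these 4 settings. The cause of each change was not tested.

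The methods of the study speak of pairs of sham and TAC mice, without naming which samples formed a pair. The labels do not say that equal numbers mark paired mice, and the deviations of sham 1 and TAC 1 correlated at −0.24. The replicate block called 2 of the 8 genes (Tpm2 at 1.80, Tnnc1 at 0.52), 566 of all genes and 4 partner genes, and ended the calls of Daam1 and Ppp2ca. Crossing the pairs, chosen after seeing the data, called 4 of the 8 (2 higher, and Tpm3 and Tpm4 lower) and 2131 of all genes. Depth limits Tnni1, with 0 to 4 counts a library.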
